A study of Homo sapiens with 15 samples.

Results

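The genes described here are 49 homeobox and PAX transcription factors that lie outside the HOX clusters. They were chosen by symbol from a list of the PAX, sine oculis homologue (SIX2 to SIX6), LIM homeobox (LHX), DLX, MSX, EN, IRX, MEIS, PBX and paired-like families, and all 49 had a row among the 25681 gene symbols of the count tables. RNA was sequenced from HSSYII, a cell line from synovial sarcoma in which the SS18-SSX1 fusion is expressed, in 5 groups of 3 libraries, 15 in all. In the first experiment low-passage cells received DMSO or 100 nM dBRD9A for 6 hr, dBRD9A being a small molecule that brings the bromodomain protein BRD9 to the cereblon ubiquitin ligase for degradation. In the second, the cells were infected with lentivirus that carries GFP and an shRNA against Renilla luciferase (shRenilla, the control) or against the fusion (shSS18-SSX1-1 or shSS18-SSX1-2) at a multiplicity of infection of 1.0, and RNA was taken at 96 hr. No drug selection was applied. All groups come from this 1 cell line and carry the fusion gene, and the sources used here do not say whether the 3 libraries of a group came from separate cultures, so p-values measure only the spread between these libraries.

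Homeobox proteins bind DNA through a helix-turn-helix fold and set the identity of cells along the axes of the embryo, and PAX proteins bind through a paired domain, alone or beside a homeodomain. In the embryo PAX3 and PAX7 mark neural crest and muscle progenitors, LIM homeobox factors specify neurons and limb, IRX factors pattern the neural plate, heart and limb, and MEIS and PBX proteins bind DNA beside other homeodomain factors. Many of these genes are kept silent by Polycomb complexes in cells that do not use them, and in synovial sarcoma the fusion protein replaces SS18 in the BAF chromatin remodelling complex, which opposes Polycomb and in some of its forms contains BRD9.

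Levels are given as CPM, read counts set relative to the depth of each library and scaled between the 15 libraries by TMM, which assumes that most genes are unchanged. The total counts were 18580419 to 27031647 per library. SSX1, whose reads include the fusion, was 55.1 to 77.01 CPM with shRenilla, 18.7 to 20.9 with shSS18-SSX1-1 and 27.8 to 29.2 with shSS18-SSX1-2. The hairpin labels therefore match the transcript that they target, and SSX1 together with TLE1 and BCL2, markers of synovial sarcoma, was present in all 15 libraries. dBRD9A acts on the protein, so mRNA does not check that label. ShRenilla replicate 1 stands apart from its group, with a chi-square per degree of freedom of 34.6 and 25.6 against the other 2 shRenilla libraries, where no other pair of replicates passed 9.32. Results that this library moves are given with and without it.

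The cell line held a broad set of these factors. A filter on low counts (edgeR filterByExpr, minimum count 10) passed 37 of the 49 in at least 1 comparison, and 26 reached a mean of 5 CPM in at least 1 group. Per kb of exon sequence and in DMSO, the highest level was that of MSX1 at 120.2 CPM per kb, a factor of craniofacial and limb mesenchyme. DLX1 followed at 63.7 and LHX2 at 60.4 CPM per kb, then DLX2 at 42.9, PBX3 at 25.1, MEIS2 at 22.9, EN2 at 21.8, PAX7 at 21.5, IRX2 at 21.0 and UNCX at 18.7. PAX3, the close relative of PAX7, stood at 4.81 CPM per kb in DMSO.

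The other 12 were not tested in any comparison. PAX4, a factor of pancreatic endocrine cells, and EN1 had no count in any of the 15 libraries, which with 339690267 summed counts allows up to 0.00883 CPM, counting error only. PAX1, PAX2, PAX5, PAX8, SIX6, LHX5, LHX9, DLX5, DLX6 and PITX3 reached at most 0.709 CPM in any library. PAX8, a kidney and thyroid factor, had no count in the 9 libraries of DMSO, dBRD9A and shRenilla. It had 8 counts over the shSS18-SSX1-1 libraries and 35 over the shSS18-SSX1-2 libraries. Both hairpins pooled and set against 3 counts over the shRenilla group give a ratio of 7.55. That ratio leaves out the counting error of the hairpin side. PAX8 counts came mostly from shSS18-SSX1-2, so the pooled ratio does not hold for each hairpin. PAX2, its close relative, had 23 counts with shRenilla and 12 over both hairpins, a ratio of 0.275 (exact 95% counting interval 0.125 to 0.576), and 20 counts with dBRD9A against 2 with DMSO, a ratio of 9.25 (2.25 to 81.7). These intervals cover counting error only.

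Knockdown of the fusion lowered most of the tested members. Among 35 tested, 24 fell and 2 rose at an adjusted p under 0.05 in edgeR's quasi-likelihood test of both hairpins against shRenilla, and 9 did not pass. The share that fell was 68.6%, where 22.1% of the 14269 genes tested fell, and the share that rose was 5.71%, where 22.5% of genes rose. With a fold above 1.5 also required, 21 fell (60% against 5.90% of genes) and 2 rose (5.71% against 12.5%). The median log2 fold change of the 35 was -0.77, beside -0.014 over all genes tested. The CPM of the 3 shRenilla libraries did not overlap those of the 6 hairpin libraries for 23 of the 24 that fell, where 17.0% of genes fell without overlap, and for both that rose, where 21.6% of genes did. Without shRenilla replicate 1 the counts were 25 lower and 3 higher, where 42.5% of genes changed. Those counts are at any fold. Without that library IRX6 and PITX1 no longer passed a fold of 1.5, and DLX2 did. LHX6 and DLX3 passed the filter only through the side where they are high, so their calls followed from the filter in part. Leaving both out, 23 of 33 fell and 1 rose.

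By family, all 4 tested PAX members, 5 of 5 LHX, 6 of 6 IRX and 3 of 3 paired-like members fell. So did 2 of 3 among MSX and EN and 2 of 4 DLX members, against 1 of 6 among MEIS and PBX and 1 of the 4 tested sine oculis homologues. The 2 that rose were SIX2 and DLX3. RNA came from the whole culture, so less RNA per cell and fewer cells of a kind cannot be told apart. Marker genes of other cell types moved in the same libraries. The summed level of 8 smooth muscle and fibroblast markers was 41.1 to 48.5 CPM with shRenilla, 1169 to 1182 with shSS18-SSX1-1 and 1315 to 1474 with shSS18-SSX1-2, with 5 of 6 tested markers higher and 2 of the 8 at 0 in shRenilla. For 6 epithelial markers the sums were 0.0484 to 0.490 CPM, 65.4 to 68.2 and 134 to 159, with 3 of 3 tested markers higher and 3 of the 6 at 0 in shRenilla. Tested markers of skeletal muscle (5 of 5), leukocytes (1 of 1), endothelium (1 of 1) and cartilage, bone and fat (3 of 4, the other lower) rose as well, 1 of 4 neural markers fell, and 4 of 5 synovial sarcoma markers fell, SSX1 and SS18 among them. The part of these genes in the fall of the homeobox genes was not tested.

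**Figure D1:**
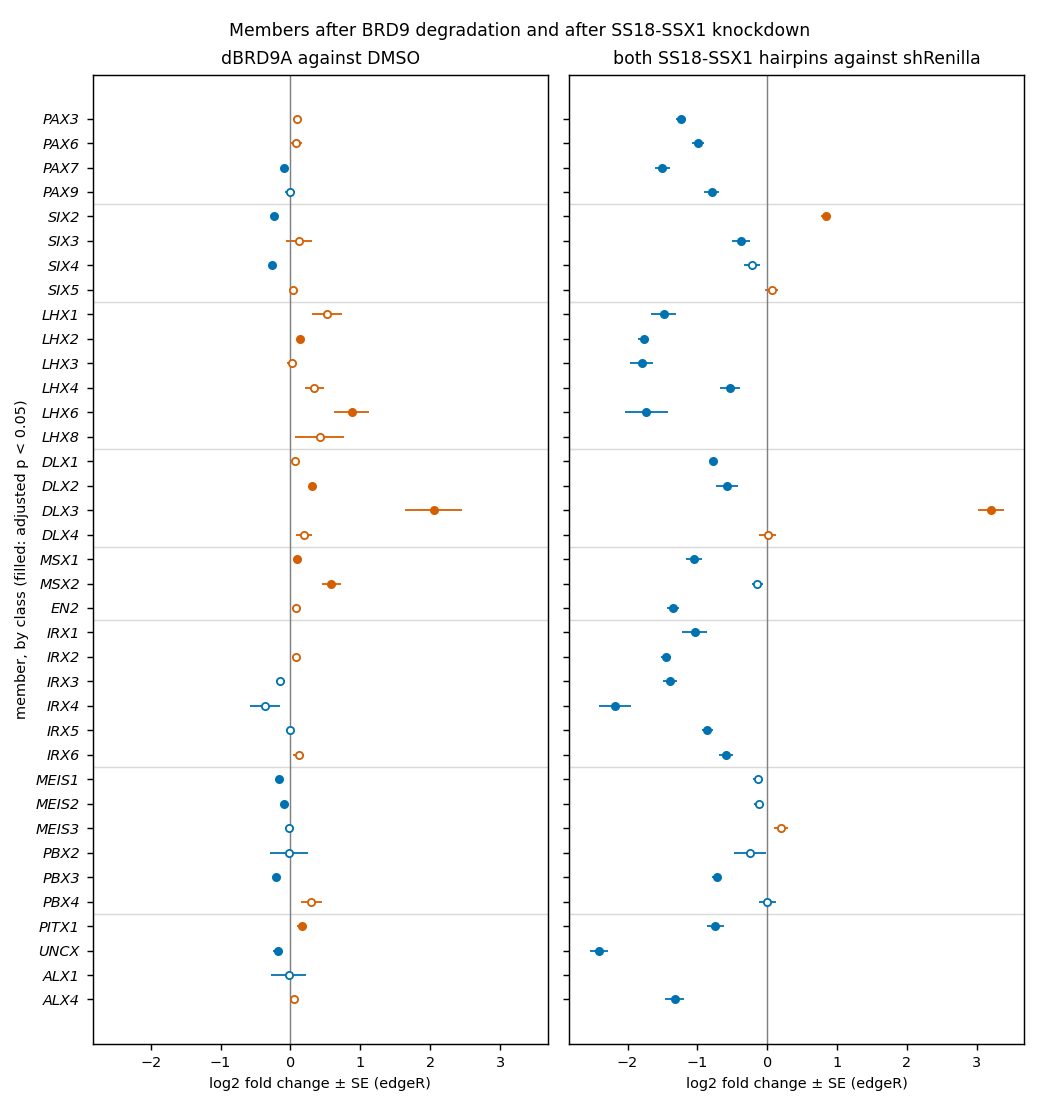
Log2 fold change ± SE (x axis) of each tested member (y axis, by family) for dBRD9A against DMSO (left) and both SS18-SSX1 hairpins against shRenilla (right). Filled points passed an adjusted p of 0.05, and the right panel holds 24 falls and 2 rises where the left holds 7 of each.

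Among the PAX genes, PAX7, a paired-domain and homeodomain factor of muscle progenitors on chromosome 1, had the highest CPM. Per kb of exon sequence PAX3 stood above PAX7 in the second experiment. With shRenilla the values were 27.0 for PAX3 and 24.9 CPM per kb for PAX7. The CPM of PAX7 was 141, 155 and 169 in the 3 shRenilla libraries, 48.7, 51.5 and 39.8 with shSS18-SSX1-1 and 69.9, 52.6 and 74.8 with shSS18-SSX1-2. Each hairpin library lay below each control library, and the log2 fold change was -1.50 (SE 0.10, adjusted p = 6.52e-08). PAX3, which acts beside PAX7 in neural crest and muscle precursors, was at 89.01, 90.8 and 92.2 CPM with shRenilla, 36.05, 37.7 and 32.8 with shSS18-SSX1-1 and 45.5, 39.4 and 42.6 with shSS18-SSX1-2. It changed by -1.24 (SE 0.068, adjusted p = 5.65e-09), again without overlap. PAX3 with either hairpin nevertheless stayed above its DMSO level of 15.7, 16.3 and 16.5 CPM, a comparison across experiments in which treatment, time and lentivirus all differ.

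PAX6, the master factor of eye development, was at 25.7, 28.3 and 23.6 CPM with shRenilla against 11.9, 12.2 and 11.8 and 14.3, 13.9 and 15.3 with the 2 hairpins, a log2 fold change of -0.99 (SE 0.08, adjusted p = 2.43e-07). PAX9, a factor of the sclerotome and pharyngeal pouches, was at 13.3, 14.8 and 14.1 CPM against 7.25, 7.83 and 5.79 and 10.99, 9.05 and 8.93, a change of -0.80 (SE 0.11, adjusted p = 3.62e-05). Both genes share exon sequence with a gene on the other strand (994 bases of PAX6 with ELP4, and 1442 bases of PAX9 with SLC25A21), and with the strand setting of the counting unknown, reads from those stretches cannot be assigned. Several transcript rows of PAX3 and PAX7 were deposited, and they count shared reads. The other 2 rows of PAX7 held 20.1 to 25.6% of the count of the row used in shRenilla libraries, 19.0 to 25% with shSS18-SSX1-1 and 19.4 to 24.2% with shSS18-SSX1-2. The log2 ratio of hairpin to shRenilla mean CPM was -1.43 for those rows, so they moved with the row used. The 2 lowest rows of PAX3 gave -1.33 and -1.34.

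The LIM homeobox factors, which pair a homeodomain with LIM domains that recruit the adaptor LDB1, fell together. LHX2, a regulator of forebrain, eye and limb growth, was at 134, 135 and 132 CPM with shRenilla, 34.9, 36.9 and 30.1 with shSS18-SSX1-1 and 49.3, 40.4 and 49.8 with shSS18-SSX1-2. The groups were far apart, and the change was -1.77 (SE 0.079, adjusted p = 8.39e-10). LHX3, which specifies pituitary cells and motor neurons, went from 11.4, 8.02 and 10.6 CPM to 2.49, 2.65 and 1.68 and 4.31, 2.72 and 4.41 with the 2 hairpins, a change of -1.80 (SE 0.17, adjusted p = 1.22e-06). The remaining 3 were scarcer. LHX1 had a mean of 4.57 ± 0.42 CPM with shRenilla (SD, n = 3, as for the means that follow) and 1.69 ± 0.55 and 1.65 ± 0.4 with the hairpins, a change of -1.48 (SE 0.18, adjusted p = 1.33e-05). LHX6, a factor of cortical interneurons, was at 0.815 ± 0.2, 0.207 ± 0.075 and 0.306 ± 0.095 CPM and changed by -1.73 (SE 0.31, adjusted p = 0.000429). It was tested through shRenilla alone, since none of the 6 hairpin libraries reached the level that the filter asks for, 0.451 CPM. LHX4 showed the smallest fall of the family, -0.54 (SE 0.14, adjusted p = 0.0066). LHX8 passed the filter only in the fits that hold the DMSO libraries.

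The cofactors of these families did not move one way. Of 12 tested among 14 cofactors of PAX, sine oculis and LIM homeobox factors, 4 rose and 5 fell with knockdown. Over all genes tested, 22.5% rose and 22.1% fell. With a fold above 1.5 also required, 1 cofactor rose and 4 fell, where 12.5% and 5.90% of genes did. The median log2 fold change of the cofactors was -0.21. Those that rose include the LDB1 adaptor itself at 0.47 (SE 0.093, adjusted p = 0.00102) and its stabilising partners SSBP3 at 0.84 (SE 0.074, adjusted p = 6.28e-07) and SSBP2 at 0.52 (SE 0.09, adjusted p = 0.000309). LMO4, a LIM-only protein that competes for LDB1, changed by -0.68 (SE 0.066, adjusted p = 1.64e-06), LMO2 by -1.57 (SE 0.16, adjusted p = 3.44e-06), and DACH1, a cofactor of sine oculis homologues, by -0.67 (SE 0.068, adjusted p = 2.26e-06).

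The IRX genes encode TALE homeodomain factors and sit in 2 clusters of 3 genes, IRX4, IRX2 and IRX1 on chromosome 5 and IRX3, IRX5 and IRX6 on chromosome 16. All 6 fell. IRX2, the most abundant per kb, was at 126, 138 and 125 CPM with shRenilla, 41.4, 43.3 and 38.6 with shSS18-SSX1-1 and 55.6, 51.9 and 59.7 with shSS18-SSX1-2, and changed by -1.45 (SE 0.067, adjusted p = 1.03e-09). In the second cluster IRX3 went from 41.3, 32.8 and 42.02 CPM to 13.3, 12.6 and 11.6 and 18.7, 15.8 and 18.9, a change of -1.39 (SE 0.095, adjusted p = 5.46e-08). Neighbours fell by different amounts. IRX5, 644 kb from IRX3, was at 39.7, 34.8 and 37.04 CPM with shRenilla against 19.4, 20.2 and 18.3 and 23.8, 20.2 and 23.1 and changed by -0.86 (SE 0.079, adjusted p = 9.15e-07). IRX6, 390 kb further on, was at 27.1, 21.9 and 25.1 against 15.5, 16.6 and 12.8 and 19.7, 16.5 and 19.5 CPM and changed by -0.59 (SE 0.10, adjusted p = 0.000326). Without shRenilla replicate 1 the change of IRX6 was -0.495 (adjusted p = 0.00199), a fold under 1.5. The 2 scarce members of the chromosome 5 cluster were IRX4, a ventricle factor of the heart, at 2.11 ± 0.27, 0.401 ± 0.18 and 0.575 ± 0.15 CPM with a change of -2.18 (SE 0.23, adjusted p = 3.39e-06), and IRX1 with a change of -1.04 (SE 0.18, adjusted p = 0.000311). IRX4 reached the level that the filter asks for, 0.451 CPM, in all 3 shRenilla libraries, but in only 1 shSS18-SSX1-1 and 2 shSS18-SSX1-2 libraries.

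Paired-like factors and EN2 gave some of the deepest falls. UNCX, a factor of the vertebral column and of the kidney, had the most negative log2 fold change of the 35 tested members. It was at 32.2, 26.5 and 24.6 CPM with shRenilla, 4.302, 4.27 and 2.95 with shSS18-SSX1-1 and 8.58, 6.69 and 6.77 with shSS18-SSX1-2, a change of -2.41 (SE 0.13, adjusted p = 3.47e-09). ALX4, which is needed for the skull vault, was at 22.98, 18.8 and 24.5 CPM against 8.24, 8.75 and 6.32 and 11.1, 7.91 and 11.8, a change of -1.33 (SE 0.13, adjusted p = 2.14e-06). PITX1, the hindlimb factor, was at 16.1, 10.7 and 13.2 against 8.11, 7.67 and 7.305 and 9.49, 7.52 and 8.62 CPM, a change of -0.74 (SE 0.12, adjusted p = 0.000252). All 3 were below shRenilla in each hairpin library. Without shRenilla replicate 1 the change of PITX1 was -0.56 (adjusted p = 0.00152), a fold under 1.5. EN2, an engrailed factor of the midbrain and hindbrain, was at 54.3, 54.5 and 53.2 CPM with shRenilla, 17.8, 18.6 and 15.8 with shSS18-SSX1-1 and 26.8, 22.8 and 29.3 with shSS18-SSX1-2, and changed by -1.35 (SE 0.083, adjusted p = 1.74e-08). The shRenilla values of EN2 were close to each other, so that its hairpin groups stood well outside them.

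MSX1 and MSX2 are paralogous factors downstream of BMP signalling, and their calls differed. MSX1 was at 291, 199.98 and 187 CPM with shRenilla, 95.1, 106 and 107 with shSS18-SSX1-1 and 116, 123 and 119 with shSS18-SSX1-2, a change of -1.04 (SE 0.11, adjusted p = 4.53e-06). Its highest value was that of shRenilla replicate 1, and without that library the change was -0.80 (adjusted p = 2.13e-07). MSX2 was at 32.4, 38.1 and 34.7 CPM against 29.1, 32.8 and 31.8 and 32.9, 32.4 and 33.4, and its log2 fold change of -0.14 (SE 0.075, adjusted p = 0.137) did not pass the test. The difference between the 2 paralogues was not itself tested.

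The DLX genes lie in convergent pairs. DLX1 and DLX2, factors of forebrain interneurons 9.76 kb apart on chromosome 2, both fell. DLX1 was at 174, 179 and 167 CPM with shRenilla, 98.7, 104 and 102 with shSS18-SSX1-1 and 102, 108 and 101 with shSS18-SSX1-2, a change of -0.77 (SE 0.059, adjusted p = 1.32e-07). DLX2 was at 44.6, 88.8 and 81.6 CPM with shRenilla against 45.6, 51.2 and 50.02 and 46.96, 47.8 and 48.7, a change of -0.58 (SE 0.15, adjusted p = 0.007). Here shRenilla replicate 1 lay below all 6 hairpin libraries, and without it the change was -0.81 (adjusted p = 3.42e-07). Without shRenilla replicate 2 or 3 the call was lost (-0.37 at adjusted p = 0.0555, and -0.46 at 0.0536).

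DLX3, a factor of epidermis, hair and placenta, moved the other way. Its CPM was 0.3396, 0.538 and 0.387 with shRenilla, 4.302, 4.37 and 4.35 with shSS18-SSX1-1 and 3.32, 3.504 and 3.797 with shSS18-SSX1-2, so the hairpin libraries were all above the control. The log2 fold change of 3.20 (SE 0.19, adjusted p = 1.00e-08) starts from a control level of 29 counts over 3 libraries, and only 1 of these 3 reached the level that the filter asks for, 0.451 CPM, so that DLX3 was tested through the hairpin libraries. DLX4, which sits 15045 bases from DLX3 on chromosome 17, was at 5.36, 5.29 and 6.38 CPM against 5.75, 5.89 and 6.85 and 5.405, 5.98 and 4.57 and did not pass the test (log2 fold change 0.01 (SE 0.12, adjusted p = 0.973)). The neighbours thus differed in call, and their difference was not tested.

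SIX2, a factor that keeps nephron progenitors undifferentiated, was the other member that rose. It was at 19.1, 18.5 and 19.2 CPM with shRenilla, 35.8, 38.8 and 35.99 with shSS18-SSX1-1 and 31.1, 32.4 and 31.1 with shSS18-SSX1-2, a change of 0.83 (SE 0.072, adjusted p = 4.56e-07). All 6 hairpin values lay above the 3 control values. SIX3, a forebrain and eye factor 59.1 kb away on chromosome 2, was at 4.45, 4.93 and 4.01 CPM against 3.58, 3.62 and 3.28 and 2.86, 3.898 and 3.54 and changed by -0.38 (SE 0.13, adjusted p = 0.0276). DESeq2 gave SIX3 an adjusted p of 0.0512. The call also rests on single libraries, since leaving out shRenilla replicate 1 gave 0.0654, shRenilla replicate 2 gave 0.12, and shSS18-SSX1-1 replicates 1 and 3 and shSS18-SSX1-2 replicate 1 gave 0.0538, 0.0664 and 0.0766. SIX4 was at 39.8, 61.1 and 60.7 CPM with shRenilla, where replicate 1 lay below all hairpin values of 49.2, 45.5 and 43.1 and 49.1, 44.999 and 49.4. Its log2 fold change was -0.21 (SE 0.11, adjusted p = 0.148), and without shRenilla replicate 1 it was -0.38 (adjusted p = 0.000689). SIX5 did not pass the test at 0.06 (SE 0.093, adjusted p = 0.625).

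The MEIS and PBX proteins are TALE partners of other homeodomain factors, and 5 of the 6 did not pass the test. MEIS1 was at 69.3, 62.8 and 60.8 CPM with shRenilla, 56.7, 56.3 and 58.7 with shSS18-SSX1-1 and 59.5, 63.7 and 59.1 with shSS18-SSX1-2, and did not pass the test at -0.14 (SE 0.068, adjusted p = 0.112). MEIS2 was at 66.3, 80.8 and 76.1 CPM against 70.7, 67.5 and 68.5 and 68.1, 69.9 and 68.2, with a log2 fold change of -0.13 (SE 0.07, adjusted p = 0.162). Without shRenilla replicate 1 it passed the test at -0.19 (adjusted p = 0.0191). MEIS3 was at 76.5, 53.2 and 64.6 CPM against 75.9, 84.6 and 72.1 and 72.2, 68.5 and 79.02, with 0.20 (SE 0.10, adjusted p = 0.131), and without the same library it was 0.36 (adjusted p = 0.00515). PBX3 was the exception in this family. It went from 92.2, 104 and 94.7 CPM to 54.6, 52.9 and 52.98 and 65.2, 63.6 and 68.3, a change of -0.73 (SE 0.063, adjusted p = 4.79e-07). PBX2 and PBX4 had means of at most 2.89 and 4.04 CPM in any group and did not pass the test.

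The stretch of 250 bases just upstream of each annotated start was read from GRCh37 to see what the members share in sequence. CG dinucleotides, the letters of CpG islands, were counted in it. The median was 19 CG over the 49 members, 24.5 over the 24 that fell and 17 over the 9 that did not pass, where the median of 19811 protein-coding genes was 18. At least 10 CG stood upstream of 87.8% of the members and of 95.8% of those that fell, against 70.5% of all genes. These counts are a description of the windows and were not tested. Shown here are 2 members that fell, EN2 with 45 CG and UNCX with 15, and 1 that rose, SIX2 with 26. The windows are at chr7:155250574-155250823 (plus strand, EN2), chr7:1272258-1272507 (plus strand, UNCX) and chr2:45236592-45236841 (minus strand, SIX2), written 5′ to 3′ in the direction of the gene with each CG in capitals.
EN2: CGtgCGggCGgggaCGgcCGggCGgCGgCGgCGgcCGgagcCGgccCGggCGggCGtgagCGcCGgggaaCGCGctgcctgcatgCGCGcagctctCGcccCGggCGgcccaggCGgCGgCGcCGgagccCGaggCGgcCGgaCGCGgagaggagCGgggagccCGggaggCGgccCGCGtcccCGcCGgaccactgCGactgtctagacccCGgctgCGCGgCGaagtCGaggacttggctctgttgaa
UNCX: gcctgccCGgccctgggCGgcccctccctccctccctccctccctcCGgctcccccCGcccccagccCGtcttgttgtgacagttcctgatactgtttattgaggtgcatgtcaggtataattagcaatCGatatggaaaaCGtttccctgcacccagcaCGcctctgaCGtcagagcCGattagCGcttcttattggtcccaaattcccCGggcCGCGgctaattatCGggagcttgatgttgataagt
SIX2: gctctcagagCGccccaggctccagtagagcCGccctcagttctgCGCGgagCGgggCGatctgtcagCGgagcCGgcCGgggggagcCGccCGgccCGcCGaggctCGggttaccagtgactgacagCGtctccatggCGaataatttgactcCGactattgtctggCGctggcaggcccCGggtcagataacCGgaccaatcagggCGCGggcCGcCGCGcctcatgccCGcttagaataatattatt
The homeodomain core motif TAATTA, which reads the same on both strands, stood upstream of 2 members, with 2 matches for UNCX and 1 for MSX2, and in 2.89% of all such windows. UNCX fell with knockdown and MSX2 did not pass the test. The window of EN2 holds more CG than 99.1% of protein-coding genes. The window of UNCX, the member with the most negative fold change, holds more CG than 40% of genes, and that of ALX4, which also fell and has 8 CG, more than 25.9%.

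**Figure D2:**
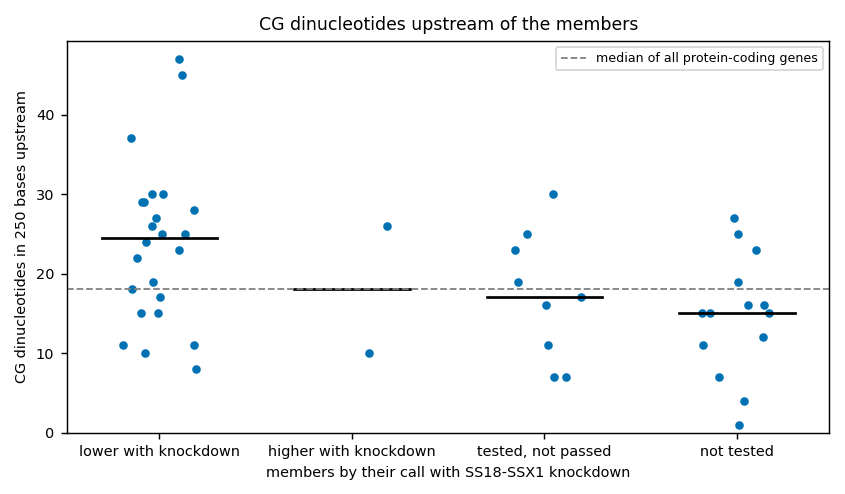
CG dinucleotides in the 250 bases upstream of each member (y axis), with members grouped by their call with SS18-SSX1 knockdown (x axis). Points are genes, black lines are group medians (24.5, 18, 17 and 15) and the dashed line is the median of 18 over all protein-coding genes.

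The 2 hairpins were compared with each other next. Against shRenilla, shSS18-SSX1-1 lowered 23 members and raised 2, where 19.5% of genes fell and 22.0% rose, and shSS18-SSX1-2 gave 23 and 2, where 15.9% fell and 18.3% rose. Both share the shRenilla libraries. LHX6 and IRX4 are among the falls with each hairpin and DLX3 among the rises. LHX6 and IRX4 reached the level of the filter in fewer than 3 libraries of each hairpin, and DLX3 in 1 shRenilla library. Those calls therefore followed from the filter in part. Taken directly between the hairpins, no member passed an adjusted p of 0.05 in edgeR, where 0.147% of all genes did, while 7 passed in DESeq2, all higher with shSS18-SSX1-2, where 1.14% of genes passed and 82.1% of those were higher. In edgeR, leaving out shRenilla replicate 1 let 3 members pass (0.777% of genes), shRenilla replicate 2 let 4 pass (0.610%) and shSS18-SSX1-2 replicate 2 let 1 pass (0.118%), again higher. At an unadjusted p under 0.05, 15 of 35 differed, where 1142 genes (8%) did. Of these, 13 were higher with shSS18-SSX1-2 and all 13 were among the members that fell, and the 2 that were lower were SIX2 and DLX3. Without overlap between the 3 libraries of each hairpin, 13 members were higher with shSS18-SSX1-2 and 3 lower, where 11.5% and 6.67% of genes were.

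Of the tested members UNCX had the widest gap between hairpins, with a log2 difference of 0.92 (SE 0.18, adjusted p = 0.0571) for shSS18-SSX1-2 minus shSS18-SSX1-1, and EN2 had the lowest p-value of the members at 0.57 (SE 0.10, adjusted p = 0.0511). IRX2 differed by 0.42 (SE 0.083, adjusted p = 0.0671), and LHX2 by 0.43 (SE 0.098, adjusted p = 0.105). DLX1, in contrast, was at -0.78 with shSS18-SSX1-1 and -0.77 with shSS18-SSX1-2 against shRenilla. SSX1 itself was at -1.67 (SE 0.12, adjusted p = 1.19e-07) with shSS18-SSX1-1 and -1.18 (SE 0.12, adjusted p = 3.01e-06) with shSS18-SSX1-2 against shRenilla, and the direct log2 difference was 0.49 (SE 0.12, adjusted p = 0.138). Of the marker lists, 2 of 3 tested epithelial markers were higher with shSS18-SSX1-2, and no other tested marker passed. The part of the residual fusion transcript and of these markers in the gap was not tested.

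After 6 hr of BRD9 degradation the changes of the abundant members were small, with absolute log2 fold changes of at most 0.31 among the genes that fell with knockdown and reached 5 CPM in a group. Of 36 tested members, 7 rose and 7 fell, 19.4% each, where 17.7% of 13652 genes rose and 18.2% fell. With a fold above 1.5 also required, 3 rose (8.33% against 2.23% of genes) and none fell, where 0.593% of genes fell. The median log2 fold change was 0.067, beside 0.0113 over all genes. Without overlap between the 3 libraries of each group, 9 members were higher and 5 lower, where 22.5% and 23.3% of genes were. DESeq2 called 9 of the members in place of 14, where 26.9% of genes were called, and a fit of all 15 libraries called 5, where 10.3% were, so single calls of this size are uncertain. Leaving out DLX3 and LHX8, which passed the filter only through the dBRD9A libraries, 6 of 34 rose and 7 fell at any fold. DLX3 is also 1 of the 3 that rose by more than 1.5-fold, and MSX2 passed that cut at a ratio of 1.501. Markers moved here too. Higher with dBRD9A were 3 of 4 tested neural markers (summed level 39.96 to 45.4 CPM with DMSO and 50.9 to 55.4 with dBRD9A, with 1 and 2 of the 6 at 0), 2 of 5 tested smooth muscle and fibroblast markers (37.5 to 40.9 and 43.6 to 46.6 CPM, with 2 and 0 of the 8 at 0) and 1 of 2 tested cartilage, bone and fat markers (24.5 to 28.8 and 31.6 to 32.8 CPM, with 2 and 3 of the 7 at 0). Their part in the changes of the members was not tested.

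The 3 that rose by more than 1.5-fold were scarce in the DMSO and dBRD9A libraries, though MSX2 had a mean of 35.07 CPM with shRenilla. DLX3 was at 0.0898, 0.342 and 0.144 CPM with DMSO and 0.757, 0.719 and 1.0004 with dBRD9A, a log2 fold change of 2.05 (SE 0.41, adjusted p = 0.000181). It passed the filter through the dBRD9A libraries, and its 13 counts with DMSO and 59 with dBRD9A give a ratio of 4.2 (exact 95% counting interval 2.28 to 8.35). LHX6 was at 0.584, 0.728 and 0.769 CPM with DMSO and 1.304, 1.28 and 1.22 with dBRD9A, a change of 0.87 (SE 0.25, adjusted p = 0.00634), and DESeq2 gave it an adjusted p of 0.056. MSX2 was at 2.604, 3.17 and 3.03 CPM and 4.33, 4.47 and 4.35, a change of 0.59 (SE 0.13, adjusted p = 0.000699). In all 3 genes each dBRD9A library lay above each DMSO library.

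Among the members abundant with DMSO the changes were smaller. DLX2 rose from 98.5, 103 and 114 CPM with DMSO to 131, 132 and 126 with dBRD9A, 0.31 (SE 0.042, adjusted p = 7.84e-07). LHX2 was at 138, 146 and 149.8 and 163, 159 and 154 CPM, 0.14 (SE 0.036, adjusted p = 0.00286). SIX4, which acts with EYA proteins in muscle and kidney development, fell from 112, 102 and 112 to 89.9, 90.6 and 89.4 CPM, -0.27 (SE 0.039, adjusted p = 2.82e-06). The groups of DLX2, LHX2 and SIX4 did not overlap. SIX2 was at 22.9, 26.1 and 23.9 and 21.4, 20.8 and 19.7 CPM, -0.23 (SE 0.063, adjusted p = 0.00382), and PBX3 at 70.6, 69.5 and 73.4 and 62.1, 61.6 and 60.4 CPM, -0.21 (SE 0.041, adjusted p = 0.000182). MEIS1 fell by 0.16 on the log2 scale (adjusted p = 0.00348). UNCX was at 34.3, 39.7 and 43.1 CPM with DMSO and 36.6, 33.6 and 32.4 with dBRD9A, -0.18 (SE 0.063, adjusted p = 0.0243). Calls near the threshold depended on single libraries. PAX7 (-0.09 (SE 0.034, adjusted p = 0.0331)) lost its call without DMSO replicate 1 or any of the 3 dBRD9A libraries (adjusted p 0.0616 to 0.12). MEIS2 (-0.10 (SE 0.038, adjusted p = 0.038)) lost it without DMSO replicate 3 or dBRD9A replicate 2 or 3 (0.0796 to 0.263). MSX1 (0.09 (SE 0.035, adjusted p = 0.0409)) lost it without DMSO replicate 1 or 3 or any dBRD9A library (0.0504 to 0.304). PITX1 (0.16 (SE 0.063, adjusted p = 0.0445)) lost it without DMSO replicate 1 or any dBRD9A library (0.0592 to 0.313), and UNCX without DMSO replicate 2 or 3 or dBRD9A replicate 2 or 3 (0.0591 to 0.191). The calls of these 5 genes thus rest on single libraries, and they also depend on scaling, model or row choice. In edgeR PAX7 and MEIS2 lost theirs with upper quartile scaling (adjusted p = 0.0875 and 0.0907) and with total counts (0.0696 and 0.0786). MSX1 lost it with RLE scaling (0.0553) and UNCX with rows summed per symbol (0.0822). PITX1 lost it in DESeq2 (0.137).

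No IRX member passed the test, with log2 fold changes from -0.37 for IRX4 to 0.12 for IRX6 among the 5 tested. IRX3, at -0.15 (SE 0.064, adjusted p = 0.0739), passed without DMSO replicate 1 (-0.24, adjusted p = 0.000755). PAX3 stood at 15.7, 16.3 and 16.5 CPM with DMSO and 17.3, 17.2 and 17.1 with dBRD9A, and its log2 fold change of 0.10 (SE 0.065, adjusted p = 0.249) did not pass. EN2 likewise did not pass at 0.07 (SE 0.04, adjusted p = 0.158), nor did DLX1 at 0.06 (SE 0.036, adjusted p = 0.205), LHX1 at 0.52 (SE 0.22, adjusted p = 0.0608) or LHX4 at 0.34 (SE 0.14, adjusted p = 0.0513). LHX1 passed without DMSO replicate 2 or dBRD9A replicate 2 or 3 (0.61 to 0.67, adjusted p 0.0294 to 0.0435), and LHX4 without DMSO replicate 1 or dBRD9A replicate 3 (0.40 and 0.39, adjusted p = 0.0455 and 0.0457).

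The effects of dBRD9A and of knockdown were then compared gene by gene in a fit of all 15 libraries, as the dBRD9A effect minus the knockdown effect. They differ in time, in agent and in whether virus was used. Of 37 tested members, 23 had a higher and 1 a lower value, 62.2% and 2.70%, where 17.5% and 19.0% of 14560 genes did. Leaving out the 5 members that reached the level of the filter in fewer than 3 libraries of DMSO, of dBRD9A, of shRenilla or of both hairpins (LHX6, LHX8, DLX3, IRX1 and ALX1), 22 of 32 were higher and 1 lower. Of the 24 members that fell with knockdown, 23 were tested with dBRD9A, of which 3 also fell (PAX7, PBX3 and UNCX), 5 rose (LHX2, LHX6, DLX2, MSX1 and PITX1) and 15 did not pass. Over all genes tested with dBRD9A, 18.2% fell and 17.7% rose. In the fit of all 15 libraries the dBRD9A calls of LHX2, DLX2, MSX1, PITX1, PAX7 and UNCX were lost (adjusted p 0.238 to 0.713). PBX3 was at -0.21 with dBRD9A and -0.73 with knockdown, a difference of 0.50 (SE 0.078, adjusted p = 6.28e-05). For UNCX the values were -0.18 and -2.41, a difference of 2.21 (SE 0.16, adjusted p = 8.98e-09). SIX2 was the member with a lower value, since it fell with dBRD9A and rose with knockdown, and its difference was -1.09 (SE 0.094, adjusted p = 6.30e-08). DLX3, which rose in both, differed by -1.17 (SE 0.50, adjusted p = 0.0796) and did not pass, except without DMSO replicate 1 (-1.51, adjusted p = 0.0362) or shRenilla replicate 2 (-1.38, adjusted p = 0.0461).

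The 2 control groups were not alike for these genes. Between shRenilla at 96 hr and DMSO at 6 hr, 16 of 37 tested members were higher and 11 lower, 43.2% and 29.7%, where 27.9% and 26.6% of genes were. With a fold above 1.5 also required, 11 were higher and 6 lower, where 13.0% and 9.77% of genes were. Time in culture, lentiviral infection and the experiment cannot be told apart in this contrast. Leaving out LHX8, DLX3, IRX1 and ALX1, which reached the level of the filter in fewer than 3 libraries of one of these groups or both, 14 of 33 were higher and 9 lower. Markers of other cell types moved between these controls as well. Higher with shRenilla were 2 of 5 tested skeletal muscle markers (summed level 55.4 to 60.3 CPM with DMSO and 96.6 to 165.7 with shRenilla, with 4 and 2 of the 8 at 0), 3 of 4 neural markers (39.96 to 45.4 and 61.01 to 81.2 CPM, with 1 and 2 of the 6 at 0) and 2 of 4 cartilage, bone and fat markers (24.5 to 28.8 and 45.9 to 76.7 CPM, with 2 of the 7 at 0 in both). Of 6 smooth muscle and fibroblast markers 2 were higher and 2 lower. Their part in the differences of the members was not tested. The knockdown contrast shares the shRenilla libraries with it, so the 2 are not independent. Of the 24 members that fell with knockdown, 11 were higher, 6 lower and 7 not passed in shRenilla against DMSO.

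MSX2 was at 2.604, 3.17 and 3.03 CPM with DMSO and 32.4, 38.1 and 34.7 with shRenilla, a log2 difference of 3.58 (SE 0.098, adjusted p = 1.84e-15). PAX3 was at 15.7, 16.3 and 16.5 and 89.01, 90.8 and 92.2 CPM, 2.49 (SE 0.072, adjusted p = 2.75e-15). MEIS3 was at 17.7, 20.8 and 19.2 and 76.5, 53.2 and 64.6 CPM, 1.75 (SE 0.11, adjusted p = 2.05e-10). These 3 genes were several-fold higher with shRenilla and their groups did not overlap. IRX1 had 2 counts over the DMSO libraries and 171 over the shRenilla libraries, a ratio of 81.8 (exact 95% counting interval 22.3 to 681). IRX2, its neighbour 844 kb away, was at 62.3, 63.6 and 67.7 CPM with DMSO and 126, 138 and 125 with shRenilla, 1.01 (SE 0.067, adjusted p = 4.54e-10). LHX1 was higher by 1.85 (SE 0.22, adjusted p = 1.41e-06), PBX2 by 1.85 (SE 0.29, adjusted p = 2.31e-05) and SIX3 by 1.11 (SE 0.18, adjusted p = 3.06e-05), each from a DMSO mean under 3 CPM. The PBX2 values with shRenilla, 3.999, 3.14 and 1.55 CPM, were widely spread.

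Lower with shRenilla than with DMSO were SIX4, at 112, 102 and 112 CPM with DMSO (-1.02 (SE 0.11, adjusted p = 4.12e-07)), and MEIS2, at 127, 121 and 129 CPM with DMSO (-0.76 (SE 0.067, adjusted p = 2.14e-08)). PITX1, at 21.5, 24.7 and 26.3 CPM with DMSO (-0.85 (SE 0.12, adjusted p = 6.64e-06)), and LHX3, at 16.6, 18.5 and 16.9 CPM with DMSO (-0.79 (SE 0.14, adjusted p = 0.000125)), were lower too. Their shRenilla values are those given with the knockdown results, and none of the 4 genes overlapped between the control groups. UNCX, ALX4 and PITX1, the paired-like members above the filter in both control groups, were all lower with shRenilla. The scarce ALX1, a craniofacial factor that passed the filter only through the DMSO and dBRD9A libraries, was at 1.03 ± 0.24 CPM with DMSO and 0.289 ± 0.14 with shRenilla (-1.81 (SE 0.36, adjusted p = 0.000353)). LHX8 had 32 counts over the DMSO libraries and 5 over the shRenilla libraries, a ratio of 0.149 (0.0454 to 0.386). SIX2 was lower with shRenilla (-0.36 (SE 0.071, adjusted p = 0.000283)) and SIX3, its neighbour, higher, so that this pair went apart here as it did with knockdown, in contrasts that share the shRenilla libraries. PAX7 (0.21 (SE 0.10, adjusted p = 0.09)) and LHX2 (-0.11 (SE 0.076, adjusted p = 0.213)), abundant in both control groups, did not pass the test. PAX7 passed without shRenilla replicate 1 (0.28, adjusted p = 0.0406) or shSS18-SSX1-2 replicate 2 (0.21, adjusted p = 0.0321).

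**Figure D3:**
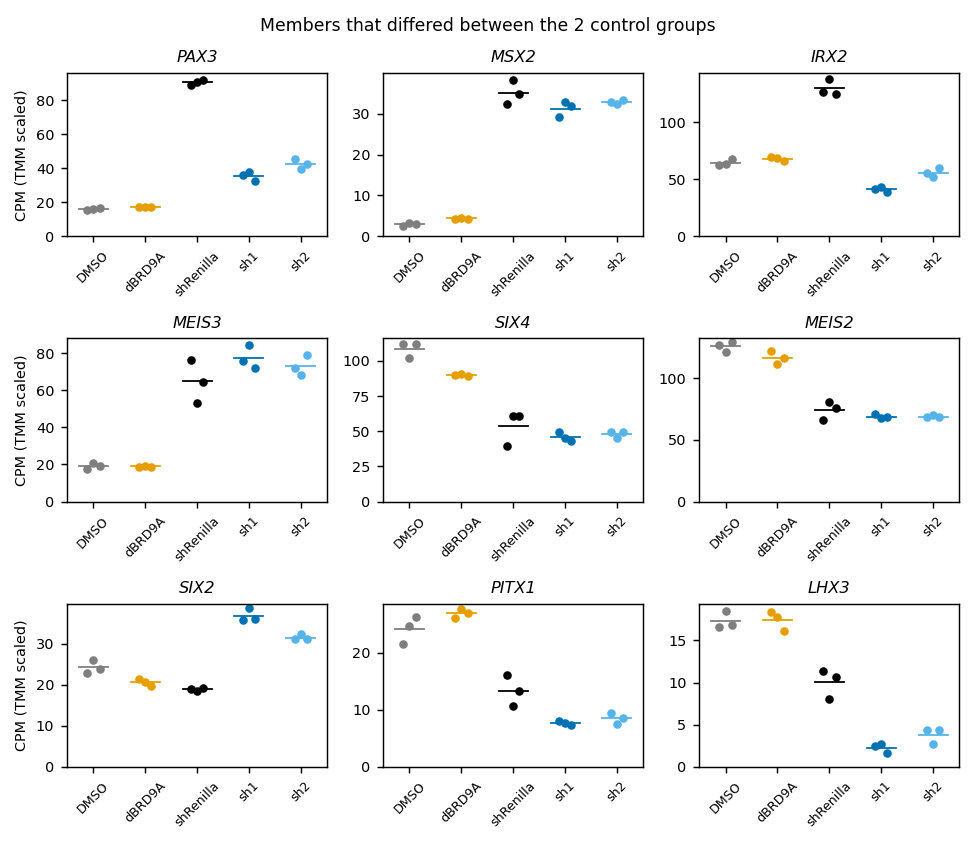
CPM (y axis, from 0) of 9 members in each of the 15 libraries by group (x axis), with sh1 and sh2 for the 2 hairpins and a line at each group mean. MSX2, MEIS3, SIX4 and MEIS2 differ between the DMSO and lentivirus experiments more than within either, while PAX3, IRX2, PITX1 and LHX3 also fall with both hairpins.

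Other homeobox genes outside the HOX clusters moved in both directions. Of 52 such genes that are not among the 49, 45 were tested with knockdown. Of these, 21 fell and 9 rose, where 22.1% of all genes tested fell and 22.5% rose. With a fold above 1.5 also required, 17 fell and 4 rose, where 5.90% and 12.5% of genes did. The median log2 fold change was -0.16, beside -0.014 over all genes. An excess of falls was therefore not particular to the 49 members. By mean level over all 15 libraries, the 3 most abundant that passed were ZFHX4, a zinc finger homeobox factor, at 0.39 (SE 0.11, adjusted p = 0.00966), TGIF2, a TALE repressor, at -0.33 (SE 0.072, adjusted p = 0.00196), and SHOX2, a limb and heart factor, at -0.41 (SE 0.067, adjusted p = 0.000199). With dBRD9A 8 of 42 rose and 11 fell, where 17.7% of genes rose and 18.2% fell. Of 12 genes reported as targets of PAX3, DLX or MSX factors, 7 were tested with knockdown. Of these, 4 fell and 3 rose, where 22.1% of genes fell and 22.5% rose. RET, a receptor gene linked to PAX3, was lower at -0.69 (SE 0.22, adjusted p = 0.0231), while RUNX2, a bone factor linked to MSX2 and DLX factors, rose at 0.67 (SE 0.12, adjusted p = 0.000395). With dBRD9A, GAD1 of GABA synthesis rose at 1.00 (SE 0.22, adjusted p = 0.000539).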

How the data were processed

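RNA from 15 HSSYII libraries was sequenced as single reads. Per the submitters' processing notes, the authors used STAR and featureCounts with hg19 (GRCh37), and they deposited raw counts per transcript row. For versions and the strand setting, the sources used here give nothing. The labels name NEBNext Ultra II and the methods NEBNext Ultra. The methods name ERCC spike-ins, of which the tables hold no row, so all scaling is relative.

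In the table of dBRD9A replicate 2, 4535 rows have a broken symbol, and the count was taken from the last word. Symbols turned into dates (80 rows) were restored through transcript identifiers in 78. Of 48104 transcript rows, the row with the highest total per symbol was kept. The test was edgeR 4.0.16 under R 4.3.3 (robust quasi-likelihood, TMM, filterByExpr with a minimum count of 10), with Benjamini-Hochberg adjustment over all genes tested. DESeq2 1.42.0 and limma 3.58.1 (voom) were alternatives. The SE was taken as the size of the log2 fold change over the root of its F statistic. dBRD9A was fitted with DMSO (6 libraries), the hairpins with shRenilla (9), and contrasts across experiments on all 15. Scripts were tested on simulated data. Coordinates and exon lengths come from GENCODE v44 mapped to GRCh37.

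The members and gene lists were chosen with earlier results of these data known. Each member is accounted for. Values in every library are given for members that passed an adjusted p of 0.05 and a fold of 1.5 in at least 1 contrast with a mean of at least 5 CPM in a group, and other members by means or fold changes. Of other genes, up to 3 per list and contrast are named, by mean level among those that passed. LDB1, SSBP2, SSBP3, LMO2, LMO4 and DACH1 were chosen after their values were seen, as were the 3 printed upstream windows. Some genes are left out of this report.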

Additional observations from a re-analysis of the deposited data

Results flagged for a closer look

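For 6 members both experiments gave a call, with opposite directions, and the test of the difference between the dBRD9A and knockdown effects passed. The share of all genes with such opposite calls was not computed. Of the 23 members that fell with knockdown and were tested with dBRD9A, 5 rose with dBRD9A. Over all genes tested with dBRD9A, 17.7% rose. On the log2 scale the dBRD9A effect minus the knockdown effect was 2.59 for LHX6, 1.88 for LHX2, 1.11 for MSX1, 0.88 for PITX1 and 0.86 for DLX2, which rose with dBRD9A and fell with knockdown. It was -1.09 for SIX2, which fell with dBRD9A and rose with knockdown. The dBRD9A calls of MSX1 and PITX1 were lost in DESeq2 (adjusted p = 0.101 and 0.137), and that of LHX6 as well (0.056). In the fit of all 15 libraries, which gives the difference of effects, the dBRD9A calls of LHX2 (0.311), DLX2 (0.238), MSX1 (0.713) and PITX1 (0.441) were lost. Opposite calls remained for LHX6 and SIX2. LHX6 entered the knockdown test through shRenilla alone, since no hairpin library reached the level of the filter. Its fall, and the difference built on it, therefore followed from the filter in part. The agents, the times of 6 and 96 hr and the use of virus differ between the experiments and cannot be told apart.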

How the results depend on the processing

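The count of members changed with knockdown (26) and of those whose 2 effects differ (24) stayed within 1.5 times of its value under every alternative run, with ranges of 24 to 28 and 24 to 25 when single libraries were left out. With dBRD9A 14 members changed, against 9 in DESeq2, 5 in a fit of all 15 libraries, 3 with a fold above 1.5 and 10 to 14 without single libraries. For shRenilla against DMSO 27 changed, against 17 with a fold above 1.5 and 25 to 29 without single libraries. Between the hairpins 0 differed, against 1 with RLE scaling, 1 with upper quartile scaling, 2 with total counts, 5 with no filter on low counts, 7 in DESeq2, 8 in a fit of all 15 libraries and 0 to 4 without single libraries. The cause of these shifts was not tested. Over all genes, 4906 were called with dBRD9A against 1500 in a fit of all 15 libraries, and 21 between the hairpins against 162 in DESeq2 and 123 with no filter. For members that passed in a contrast, no log2 fold change changed sign under these alternatives. Sign was not checked for the difference between hairpins, for genes that are not members, or for every member that did not pass.

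Replicates with the same number did not deviate together in a regular way (correlations of -0.45 to 0.37 over 12 pairs). Deviations from the mean of a small group depend on each other, so this check cannot exclude that the numbers pair the libraries. With a replicate block 15 members changed with dBRD9A, 26 with knockdown, 1 between the hairpins, 27 between the controls and 24 in the difference of effects. Counts of a few per library limit PAX8, PAX2, LHX8, IRX1 and DLX3.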
